A study of Mus musculus with 61 samples.

Results

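Liver RNA was examined for 29 genes of lymphocytes, chosen by name as 5 pan-lymphoid genes, 5 B cell genes, 10 T cell genes and 9 genes of natural killer (NK) and other cytotoxic cells. All 29 were among the 18754 genes of the deposited table, and 27 passed the filter on low counts and were tested. Cd5 and Cd8b1, a T cell surface receptor and the beta chain of CD8, were too low to test and are given by level only. The study sequenced liver RNA of 8 inbred mouse strains, those from which the Diversity Outbred mice were bred. The 60 libraries analysed were 8 each of strain-129 (the strain labelled by that number), NOD, NZO, PWK and WSB, 7 each of B6 and Cast, and 6 of AJ. All groups shared the same diet, high in fat and sugar with 45 percent fat, and no group on another diet was analysed here. The labels give no genotype beyond the strain, no age and no sex. They also do not state that each library came from a separate mouse, so the p-values reflect variation from library to library, part of which may be technical.

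The liver holds many lymphocytes, most of them in the sinusoids, where blood passes slowly along the hepatocytes. NK cells, natural killer T cells and resident T cells carrying the chemokine receptor CXCR6 are known for being frequent there, while B cells are fewer. T cells recognise antigen through a receptor joined to the CD3 chains, B cells through surface immunoglobulin joined to CD79A and CD79B, and NK cells kill through granules holding granzymes. In RNA from whole liver, fewer cells of a type and less RNA per cell cannot be told apart.

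Depth ranged from 19.98 to 69.17 M reads per library, and 1 read was worth 0.0169 to 0.0485 counts per M reads (CPM). At this depth 6 members (Ptprc, Ighm, Coro1a, Cd52, Cd4 and Il7r) had reads in every library, and the other 23 were at 0 in at least 1. The library NZO 8 stood apart from the other 7 of its strain in many of the genes described here. Counts of calls in NZO over all members are therefore given with and without it. Ranks, levels, single contrasts and counts within a group include it unless stated. Counts for pairs and for further gene lists were refitted without it after the data were seen. Cd52, Coro1a and Cxcr6 overlap another measured gene on the opposite strand (Crybg2, Bola2 and Fyco1), and the labels do not say whether the counting used strand. Klrb1c and Klrd1 belong to a cluster of similar receptor genes, between which reads could be split.

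Per kilobase of transcript, the level of Ighm, the constant region of immunoglobulin M, was the highest of the 29, with a mean over the 8 strain means of 7.95 CPM per kilobase. Cd52, a small surface glycoprotein of lymphocytes, followed at 1.68, Coro1a, an actin-binding protein of blood cells, at 1.59, and Ptprc, the common leukocyte antigen CD45, at 0.84. Cd4 was at 0.487, the NK and cytotoxic genes were between 0.0562 (Klrb1c) and 0.426 (Ccl5), and the CD3 chains were between 0.0649 (Cd3e) and 0.101 (Cd3d). Cd5 was the lowest at 0.0186. The defining chains of the antigen receptors, Cd79a, Cd79b, Cd3d, Cd3e and Cd3g, had reads in every strain.

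Most lymphocyte genes were highest in B6 and NZO and lowest in Cast and WSB. Ranked by strain mean with NZO 8 included, B6 was among the top 2 strains in 26 of the 29 members and NZO in 22, while Cast was among the bottom 2 in 24 and WSB in 26. The ranks were not counted without NZO 8. Without it, the mean summed CPM of NZO stayed next below B6 for the pan-lymphoid genes (33.8), the NK genes (5.50) and the B cell genes other than Ighm (2.00). For the T cell genes other than Cd4 it was 2.38 in NZO, below 2.78 in AJ. Ighm was then 6.21 in NZO, below its means in NOD, AJ, B6 and PWK. All 27 tested members differed among the strains (edgeR's quasi-likelihood test, adjusted p under 0.05, here termed called), beside 89.8% of all genes tested, so this count says little about lymphocyte genes. Strain accounted for a median of 55.7% of the variance in log2 CPM over the 27, against 49.3% over all genes tested. It ran from 17.1% for Cd4 to 72.4% for Il2rb, the beta chain of the interleukin 2 and interleukin 15 receptors.

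Each strain was then set against the mean of the other 7, taken on the log scale. In B6, 25 of 27 members were called higher, beside 19.4% of all genes, and 0 were called lower, beside 14.7%, with a median log2 fold change of 1.53 against 0.01 over all genes. The 2 members not called were Cd4 (-0.65, adjusted p = 0.368) and Ighm (0.89, adjusted p = 0.0623). In NZO, 21 were called higher, beside 26.7%, and 1, Cd4, lower, beside 19.5%, with a median of 1.39. In Cast, 21 were called lower, beside 28.8%, and 0 higher, beside 30.8%, with a median of -1.56. In WSB, 17 were called lower, beside 22.4%, and 1, Cd4, higher, beside 22.6%, with a median of -1.25. Over all genes the medians were 0.02 in NZO, -0.002 in Cast and -0.01 in WSB. Some calls ended without at least 1 library of the strain. These were Cd3d, Cd79b, Gzma, Ighd and Klrd1 in Cast, Cd3g, Cd79b and Il7r in WSB, and Cd3e and Cd8a in B6. In NZO, calls on Cd3e, Cd4, Gzmb and Lck ended without at least 1 NZO library other than NZO 8.

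**Figure D1:**
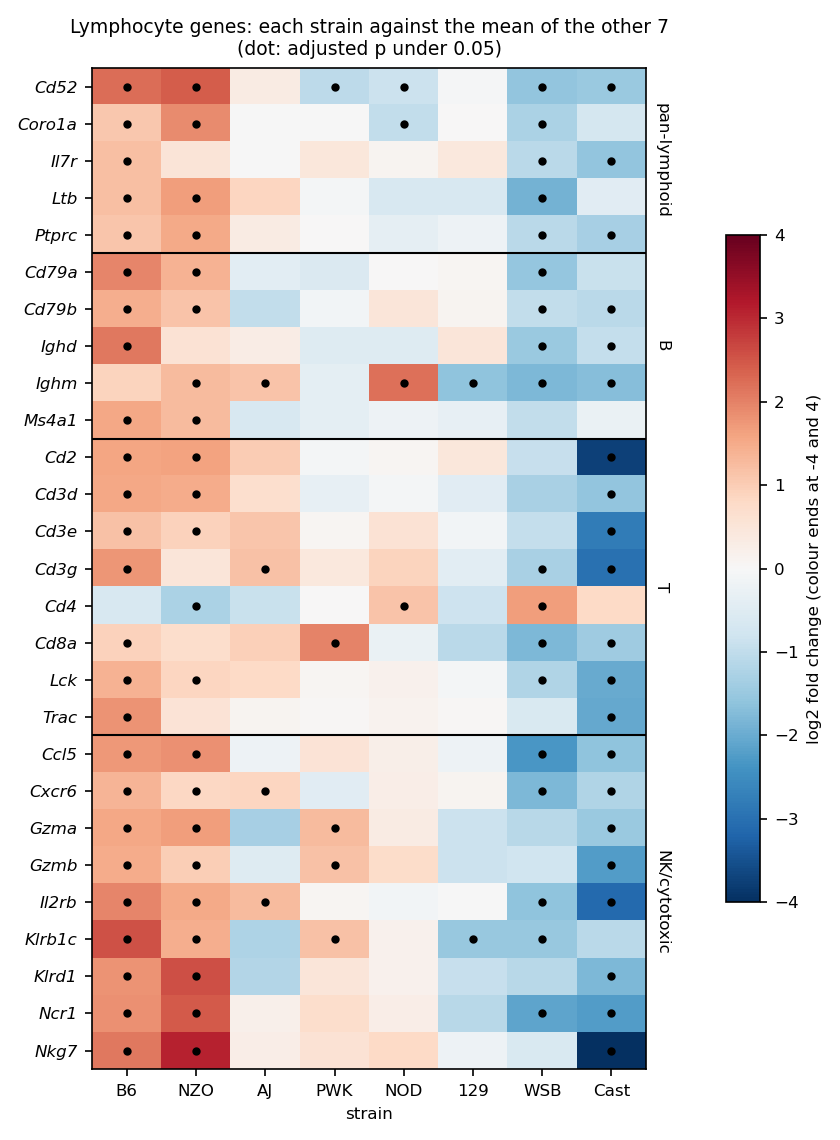
Log2 fold change of the 27 tested lymphocyte genes (rows, by group) in each strain (columns) against the mean of the other 7 strains, with a dot where the adjusted p is under 0.05. B6 has dots in 25 rows and NZO in 22, and the blue columns are Cast with 21 dots and WSB with 18, Cd4 being the red cell of WSB.

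The contrasts of pairs divided B6 and NZO from Cast and WSB in the same way. B6 and NZO differed in 1 of 27 members, Ighd, beside 21.9% of all genes. Cast and WSB differed in 3, Cd2, Il2rb and Nkg7, all lower in Cast, beside 22.8%. Between these pairs, B6 was called higher than Cast in 26, beside 28.9%, and higher than WSB in 26, beside 23.3%. NZO was called higher than Cast in 25, beside 30.5%, and higher than WSB in 25, beside 26.9%. Without NZO 8 these counts were 23 (beside 27.9%) and 22 (beside 24.6%), and NZO was lower than B6 in 2, Ighd and Ighm (beside 11.0%). Against the remaining strains, NZO was called higher than strain-129 in 16 (beside 19.0%), AJ in 11 (15.9%), NOD in 11 (17.4%) and PWK in 15 (27.2%). Without NZO 8 these counts were 11 (15.6%), 7 (12.8%), 7 (14.8%) and 6 (24.1%), the last near the share of all genes. Every B6 library lay above every Cast library in 16 of the 29 members, beside 11.6% of all genes, and above every WSB library in 13, beside 8.60%. Every NZO library lay above every Cast library in 9, beside 9.42%, and above every WSB library in 8, beside 7.39%.

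**Figure D2:**
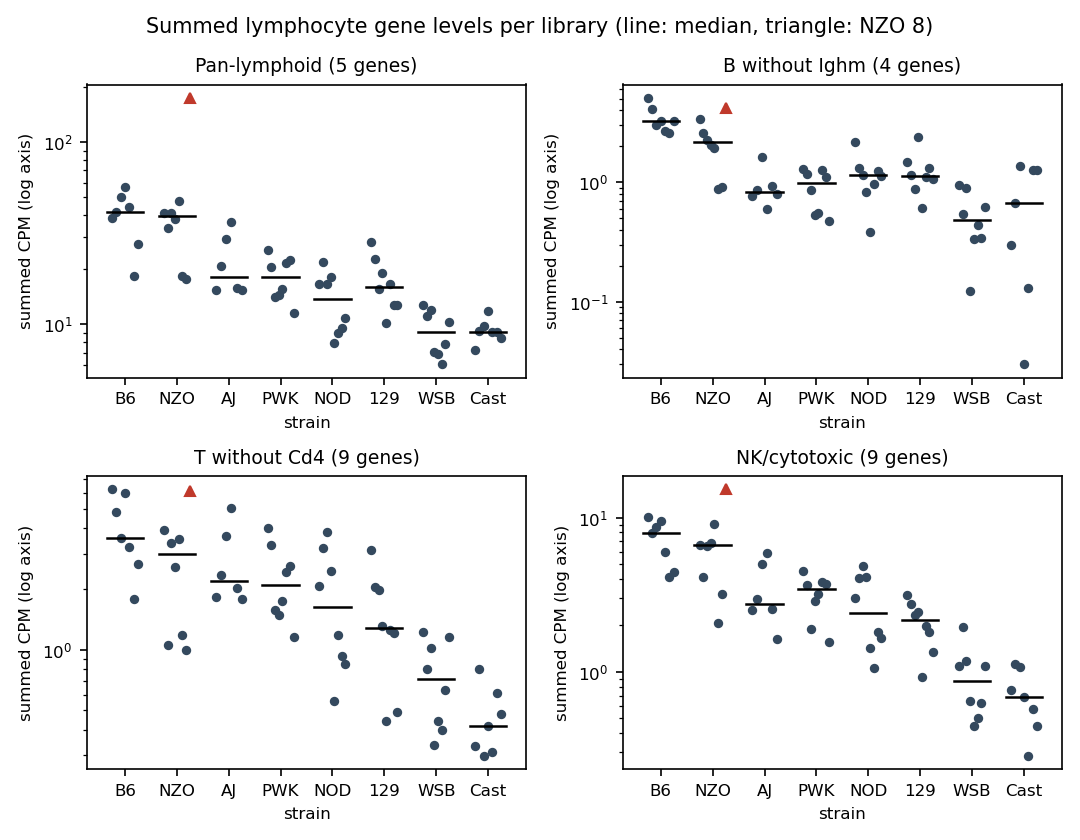
Summed CPM of the members of each group (log axes) in every library, by strain, with the strain's median as a line and NZO 8 as a triangle. The B and T sums leave out Ighm and Cd4. For the 9 NK and cytotoxic genes the strain medians run from 7.99 in B6 to 0.689 in Cast, and NZO 8 lies above all other libraries in the pan-lymphoid and the NK panel.

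The pan-lymphoid genes gave the most reads. Ptprc (chromosome 1, 138062861 to 138175708) ranged from 10.9 to 39.5 CPM in B6 with a median of 26.9, and from 13.6 to 95.2 in NZO with a median of 26.6. It ranged from 4.76 to 7.63 in Cast with a median of 5.54, and from 3.99 to 9.46 in WSB with a median of 6.53. Every library of B6 and NZO was thus above every library of Cast and WSB. The log2 fold change was 1.12 ± 0.20 (SE) in B6 (adjusted p = 8.45e-06, higher in 6 of 7 libraries) and 1.51 ± 0.18 in NZO (adjusted p = 6.94e-10, higher in 8 of 8). It was -1.32 ± 0.25 in Cast (adjusted p = 8.16e-06) and -1.09 ± 0.23 in WSB (adjusted p = 9.53e-05). Cd52 was likewise high in B6 and NZO and low in Cast and WSB, at 5.05 ± 1.81 CPM (SD, n = 7) in B6, 5.58 ± 6.08 (n = 8) in NZO, 0.523 ± 0.181 (n = 7) in Cast and 0.492 ± 0.245 (n = 8) in WSB. Coro1a, Ltb (lymphotoxin beta, a cytokine of lymphoid tissue) and Il7r (the interleukin 7 receptor, needed for T cell survival) completed the group, and all 5 were called higher in B6 and lower in WSB. In Cast 3 of 5 were called lower, the exceptions being Coro1a at -0.71 (adjusted p = 0.0506) and Ltb at -0.46. Il7r was the pan-lymphoid gene not called in NZO.

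Among the B cell genes, the receptor chains and Ms4a1 separated from Ighm. Cd79a ranged from 0.427 to 1.23 CPM in B6 with a median of 1.08, from 0.219 to 1.68 in NZO with a median of 0.573, from 0 to 0.388 in Cast and from 0 to 0.351 in WSB. The libraries of B6 did not overlap those of Cast or WSB, whereas those of NZO did. The log2 fold change of Cd79a was 1.95 ± 0.32 in B6 (adjusted p = 2.35e-06) and 1.39 ± 0.32 in NZO (adjusted p = 0.000296). Cd79b and Ms4a1, which encodes the B cell surface protein CD20, were likewise called higher in B6 and NZO. Ighd (chromosome 12, 113406604 to 113416324), the constant region of immunoglobulin D on mature B cells, was 1.09 ± 0.32 CPM (SD, n = 7) in B6 and 0.431 ± 0.195 (n = 8) in NZO. This gene was the one member called between those strains, at 1.33 ± 0.42 log2 units higher in B6 (adjusted p = 0.0176).

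Ighm (chromosome 12, 113418558 to 113422730), which lies next to Ighd, had another order. It ranged from 17.4 to 67.4 CPM in NOD with a median of 34.6, from 16.3 to 26.7 in AJ with a median of 19.4, and from 8.77 to 34.2 in B6 with a median of 15.0. In NZO it was between 4.31 and 8.25 in 7 libraries and 134.6 in NZO 8. Medians were 7.85 in PWK, 4.02 in Cast, 3.49 in strain-129 and 2.58 in WSB. NOD and AJ therefore lay above all libraries of strain-129 and Cast, and overlapped each other. The log2 fold change was 2.22 ± 0.33 in NOD (adjusted p = 2.17e-07, higher in 8 of 8 libraries) and 1.13 ± 0.40 in AJ (adjusted p = 0.0284, 6 of 6). It was -1.59 ± 0.45 in strain-129 (adjusted p = 0.00582), -1.71 ± 0.48 in Cast and -1.79 ± 0.46 in WSB. NOD was not called against AJ (0.95 log2 units higher in NOD, adjusted p = 0.271) or B6. Against NZO it was not called with all libraries (adjusted p = 0.201), and without NZO 8 NZO was 2.69 ± 0.39 log2 units lower than NOD (adjusted p = 2.11e-07). In NZO the call on Ighm rested on 1 library: the log2 fold change was 1.25 ± 0.35 (adjusted p = 0.00256) with NZO 8 above the other strains' mean and the other 7 below it, and -0.60 (adjusted p = 0.0994) without NZO 8. The call also ended with the library number as a block and with limma on the deposited values.

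**Figure D3:**
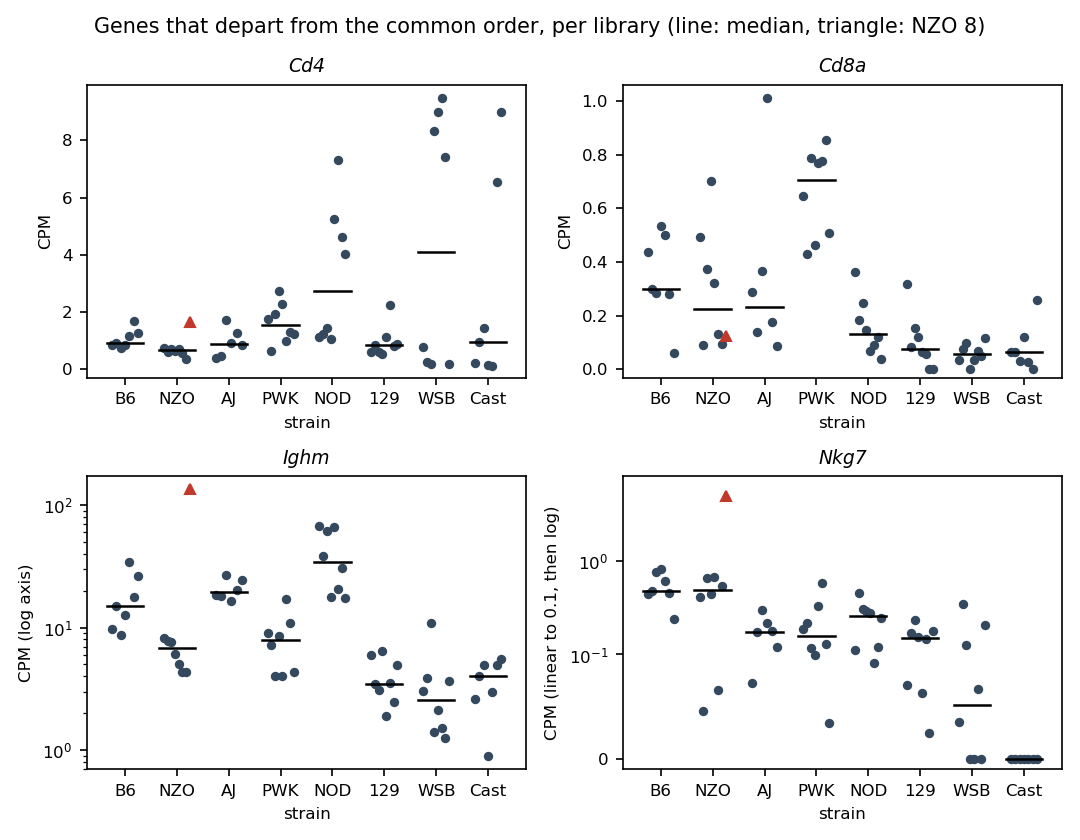
CPM of Cd4, Cd8a, Ighm and Nkg7 in every library by strain, with the median as a line and NZO 8 as a triangle (Ighm on a log axis, Nkg7 on an axis linear up to 0.1). Cd4 splits WSB into 4 libraries from 7.42 to 9.49 and 4 from 0.200 to 0.773, Cd8a is highest in PWK by median, Ighm in NOD, and Nkg7 is at 0 in all 7 Cast libraries.

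Cd2, Cd3d, Cd3e, Cd3g, Lck and Trac had their lowest strain mean in Cast, while Cd5, Cd8a and Cd8b1 had theirs in WSB. Cd3g, a chain of the T cell receptor complex, ranged from 0.176 to 1.23 CPM in B6 with a median of 0.575, from 0.0625 to 0.495 in NZO with a median of 0.289, and from 0 to 0.0965 in Cast with a median of 0.0299. All Cast libraries were below all B6 libraries. The log2 fold change of Cd3g was 1.75 ± 0.35 in B6 (adjusted p = 8.04e-05) and -2.97 ± 0.60 in Cast (adjusted p = 3.24e-05, lower in 7 of 7). Lck, the kinase that starts T cell receptor signalling, was 1.10 ± 0.47 CPM (SD, n = 7) in B6 and 0.140 ± 0.057 (n = 7) in Cast. Trac, the constant region of the receptor's alpha chain, was 0.466 ± 0.164 and 0.0432 ± 0.0552 in these strains. Cd2, an adhesion receptor of T and NK cells, had 2 reads in the 7 Cast libraries together, against 69 in those of B6. In all, 7 of 8 tested T cell genes were called higher in B6 and 7 of 8 lower in Cast. In NZO 4 were called higher (Cd2, Cd3d, Cd3e and Lck), and without NZO 8 this left Cd2. The call on Cd3e in NZO (0.94 ± 0.39, adjusted p = 0.0431) and that on Cd8a in B6 (0.93 ± 0.37, adjusted p = 0.0472) ended in 24 and 40 of the other settings.

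Cd8a (chromosome 6, 71373427 to 71379173), the alpha chain of the CD8 co-receptor of cytotoxic T cells, was highest in PWK. There it ranged from 0.429 to 0.855 CPM with a median of 0.708, above every library of strain-129, Cast, NOD and WSB. B6 ranged from 0.0599 to 0.533, NZO from 0.0918 to 0.704 and AJ from 0.0891 to 1.01, overlapping PWK. The log2 fold change in PWK was 1.99 ± 0.32 (adjusted p = 6.31e-07, higher in 8 of 8 libraries). PWK was called higher than NZO (adjusted p = 0.0391) and was not called against B6 (0.93 ± 0.48 log2 units higher in PWK, adjusted p = 0.116) or AJ (0.90 ± 0.50, adjusted p = 0.157). Cd8b1, its partner chain, had its highest strain means in PWK, 0.172 ± 0.124 CPM (SD, n = 8), and B6, 0.161 ± 0.105 (n = 7), and had 2 reads in the 8 WSB libraries together. Cd5 ran from 0.202 ± 0.088 in B6 to 0.0124 ± 0.0172 in WSB, where the 8 libraries held 3 reads.

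Cd4 (chromosome 6, 124864692 to 124888221), the co-receptor of helper T cells, ran against the rest. WSB had the highest mean and was split, with 8.32, 8.98, 9.49 and 7.42 CPM in WSB 5, 6, 7 and 8 and 0.773, 0.268, 0.200 and 0.207 in WSB 1, 3, 4 and 9. NOD was split in the same manner, with 5.27, 7.31, 4.64 and 4.04 CPM in NOD 5, 6, 7 and 8 and 1.14, 1.25, 1.43 and 1.05 in NOD 1, 2, 3 and 4. In Cast the libraries 7 and 8 were at 6.54 and 8.99 and the other 5 between 0.129 and 1.46. In NZO all libraries were between 0.375 and 1.64. The log2 fold change was 1.67 ± 0.41 in WSB (adjusted p = 0.000742, higher in 4 of 8 libraries, and adjusted p = 0.0925 with limma on the deposited values) and 1.15 ± 0.43 in NOD (adjusted p = 0.0373). It was -1.25 ± 0.53 in NZO (adjusted p = 0.0494), a call that ended in 29 other settings. Over the 60 libraries Pearson's r of log2 CPM between Cd4 and the mean of the other T cell members, Cd5 and Cd8b1 included, was -0.21. Within strains it was -0.23. The genes with the most similar pattern over the 60 libraries were C9 (r = 0.82), Gstp1 (0.77), C2 (0.77), Cmtm6 (0.75) and Gpr162 (0.73). C9 and C2 are complement components made in hepatocytes, and Gpr162 lies 708 bases from Cd4 on the same strand.

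The NK and cytotoxic genes followed the common order with no exception among the calls: 9 of 9 were called higher in B6 and in NZO, 8 of 9 lower in Cast and 5 of 9 lower in WSB. Il2rb ranged from 1.72 to 4.03 CPM in B6 with a median of 2.70, from 0.655 to 3.86 in NZO with a median of 1.87, from 0 to 0.333 in Cast and from 0.0921 to 0.537 in WSB. All libraries of B6 and NZO were above all libraries of Cast and WSB. Its log2 fold change was 1.97 ± 0.28 in B6 (adjusted p = 1.11e-07), 1.52 ± 0.28 in NZO (adjusted p = 8.38e-06), -3.12 ± 0.47 in Cast (adjusted p = 1.00e-07) and -1.61 ± 0.38 in WSB (adjusted p = 0.000443). Ncr1, the activating receptor NKp46 of NK cells, ranged from 0.0702 to 0.738 CPM in B6 and from 0.125 to 1.17 in NZO, and 5 of 7 Cast and 5 of 8 WSB libraries were at 0. Its log2 fold change was 2.44 ± 0.36 in NZO (adjusted p = 1.51e-07) and 1.84 ± 0.41 in B6 (adjusted p = 0.000344). Klrd1, the CD94 chain of NK receptors, was 0.385 ± 0.173 CPM (SD, n = 8) in NZO and 0.237 ± 0.144 (n = 7) in B6, and at most 0.104 on average in the other strains.

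Nkg7 (chromosome 7, 43437073 to 43438249), a granule protein of cytotoxic cells, had 0 reads in the 7 Cast libraries. A count of 0 allows up to 3 reads in the strain, a level of 0.0136 CPM, so the mean of the other strains, 0.338 CPM, was at least 24.8-fold higher. In the other wild-derived strains it was 0.212 ± 0.174 CPM (n = 8) in PWK and 0.0974 ± 0.124 (n = 8) in WSB, where 3 libraries were at 0. It was 0.542 ± 0.200 (n = 7) in B6. Because a strain near 0 lowers the mean of the others on the log scale, the log2 fold changes of Nkg7 in B6 (2.10 ± 0.44) and NZO (3.08 ± 0.39) rest in part on Cast. The median over the 27 members in Cast was -1.56 with Nkg7 at its bound as well. Klrb1c, the NK1.1 receptor, ranged from 0.105 to 0.806 CPM in B6 and from 0.169 to 0.387 in NZO, and had 11 reads in strain-129, 10 in AJ and 10 in WSB over all libraries of each strain. Gzma and Gzmb, the granzymes, were called higher in PWK as well as in B6 and NZO, with Gzma at 0.435 ± 0.215 CPM (SD, n = 8) in PWK and 0.515 ± 0.278 (n = 7) in B6. Cxcr6 and Ccl5, a chemokine of T and NK cells, completed the group.

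The stretch of 250 bases before the start was read for the members with an entry in the RefSeq promoter table (build GRCm38.p6), 17 of the 29, because the NK and cytotoxic genes moved together. A total of 5 motifs, chosen with the values known, was searched on both strands: TGTGGT (known from RUNX factors), AGGAAG (ETS factors), the octamer, a kappa B motif and an interferon response motif. TGTGGT was in the window of 6 of 6 NK and cytotoxic genes that had one (Nkg7, Gzma, Gzmb, Klrb1c, Ncr1 and Cxcr6), in 1 of 6 T cell genes (Lck) and in 0 of 5 pan-lymphoid and B cell genes, and 15.9% of all 27025 genes with a window held it. AGGAAG was in 11 of 17 members, beside 32.3% of genes, the kappa B motif in Ltb alone, beside 1.4%, the interferon motif in Gzma alone, beside 3.5%, and the octamer in 0, beside 1.8%. The windows of 4 genes whose levels are described here are shown in the direction of transcription, to let the position of the shared letters be seen, with TGTGGT or its reverse complement ACCACA in capitals:
Nkg7, chr7:43436888-43437137, plus strand: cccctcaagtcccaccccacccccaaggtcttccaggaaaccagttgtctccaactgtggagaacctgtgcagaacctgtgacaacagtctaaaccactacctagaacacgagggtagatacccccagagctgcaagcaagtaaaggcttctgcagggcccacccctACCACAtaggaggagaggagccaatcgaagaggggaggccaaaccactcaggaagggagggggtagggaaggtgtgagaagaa
Gzmb, chr14:56262335-56262584, minus strand: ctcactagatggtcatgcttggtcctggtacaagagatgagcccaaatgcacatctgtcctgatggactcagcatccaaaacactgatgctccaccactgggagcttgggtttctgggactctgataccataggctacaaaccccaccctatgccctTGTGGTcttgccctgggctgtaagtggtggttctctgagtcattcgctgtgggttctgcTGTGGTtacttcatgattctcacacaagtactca
Ncr1, chr7:4337465-4337714, plus strand: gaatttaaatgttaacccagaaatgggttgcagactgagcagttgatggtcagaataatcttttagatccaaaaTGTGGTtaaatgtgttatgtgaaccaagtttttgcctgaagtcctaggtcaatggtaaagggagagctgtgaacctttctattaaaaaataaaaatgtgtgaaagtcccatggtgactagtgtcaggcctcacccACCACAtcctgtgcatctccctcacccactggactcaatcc
Klrb1c, chr6:128788642-128788891, minus strand: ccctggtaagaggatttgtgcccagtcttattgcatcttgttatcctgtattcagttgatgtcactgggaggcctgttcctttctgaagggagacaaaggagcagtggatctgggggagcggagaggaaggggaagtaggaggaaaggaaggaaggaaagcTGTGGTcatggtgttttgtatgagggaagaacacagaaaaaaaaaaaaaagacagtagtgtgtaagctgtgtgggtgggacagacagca
Counted from the RefSeq start that ends each window, the nearest match lay 83 bases before it in Nkg7, 34 in Gzmb, 41 in Ncr1 and 89 in Klrb1c. RefSeq lists a second window for Ncr1, in which the distance is 50. Some of these starts differ from those of the deposited gene table: the window of Klrb1c lies inside the deposited gene, which extends to 128789215, and that of Nkg7 runs past the deposited start at 43437073. A match is a description of letters and not a binding site, and this RNA data held no measure of binding.

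The other strains differed from the mean in few members. AJ had 4 called higher (Il2rb, Cd3g, Cxcr6 and Ighm), beside 13.1% of genes, and 0 lower, beside 11.0%. Leaving out AJ 4 left 2, and leaving out NZO 8 gave 7, with Cd2, Cd3e and Ltb added. NOD had 2 higher (Ighm and Cd4), beside 16.7%, and 2 lower (Coro1a and Cd52), beside 11.6%, and 2 in all without NOD 6 or without NOD 8. Single calls that ended without 1 library of the strain were Cd3g, Cxcr6 and Ighm in AJ, Cd4 and Cd52 in NOD and Klrb1c in PWK. PWK had 4 higher (Cd8a, Gzma, Gzmb and Klrb1c), beside 22.5%, and Cd52 lower, beside 22.7%. Strain-129 had 0 higher, beside 13.7%, and Ighm and Klrb1c lower, beside 10.9%. These shares are near or under those of all genes.

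In NZO 8, 16 of the 29 members were above all other NZO libraries, and 13 were the highest of all 60 libraries, among them all 5 pan-lymphoid genes. The shares of all genes in these positions were not computed, for the members or for the markers below. The counts therefore describe this library and do not set lymphocyte genes apart from other genes. Coro1a was 54.5 CPM there and 2.29 to 7.42 in the other NZO libraries, Cd3d 1.80 against 0 to 0.271, and Nkg7 4.93 against 0.0459 to 0.676. The ratio to the mean of the other 7 was 21.7 for Ighm, 12.2 for Nkg7, 11.0 for Cd3d and 10.4 for Coro1a. It was 1.27 for Ms4a1, 1.64 for Trac and 1.38 for Klrd1, and below 1 for Ighd (0.706), Cxcr6 (0.612) and Cd8a (0.40), so members of the same group did not rise alike. Markers of several other cell types stood higher in this library as well, and others lower. The summed level of 9 neutrophil genes (such as S100a9, Ngp and Ltf) was 2431 CPM against 2.33 to 13.2 in the other NZO libraries, and all 9 were above them. That of 12 plasma cell genes was 79.9 against 2.22 to 4.36, with 11 above. For 10 proliferation genes it was 227.3 against 36.5 to 62.2 with all 10 above, and for 18 macrophage genes 2117 against 472.5 to 1123 with 15 above. The sums of stellate (431.9), biliary (159.0) and endothelial genes (384.2) were also above all other NZO libraries. Single markers above them were 5 of 11 stellate, 2 of 7 biliary and 4 of 8 endothelial genes. Spp1 gave 147.1 CPM of the biliary sum, while Epcam was 0.190 in NZO 8 and 0.67 on average in NZO. The sum of dendritic cell genes (240.1 against 56.7 to 285.2) was within the range of the other NZO libraries, with 4 of 13 above. Below all other NZO libraries were the sums of hepatocyte genes (52650 against 60100 to 112600), of red cell and platelet genes (316.4 against 455.7 to 925.7), of 2 genes listed as adipose (123.8 against 1328 to 1952) and of 4 pancreas and gut genes (37.0 against 82.0 to 152.2). The adipose sum was almost all Car3 (123.8 CPM, with Cfd at 0.0316). Adipoq, Plin1, Retn and Lep were not measured, so this sum does not show a difference in fat cells. The part of these cells in the levels of the lymphocyte genes was not tested.

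**Figure D4:**
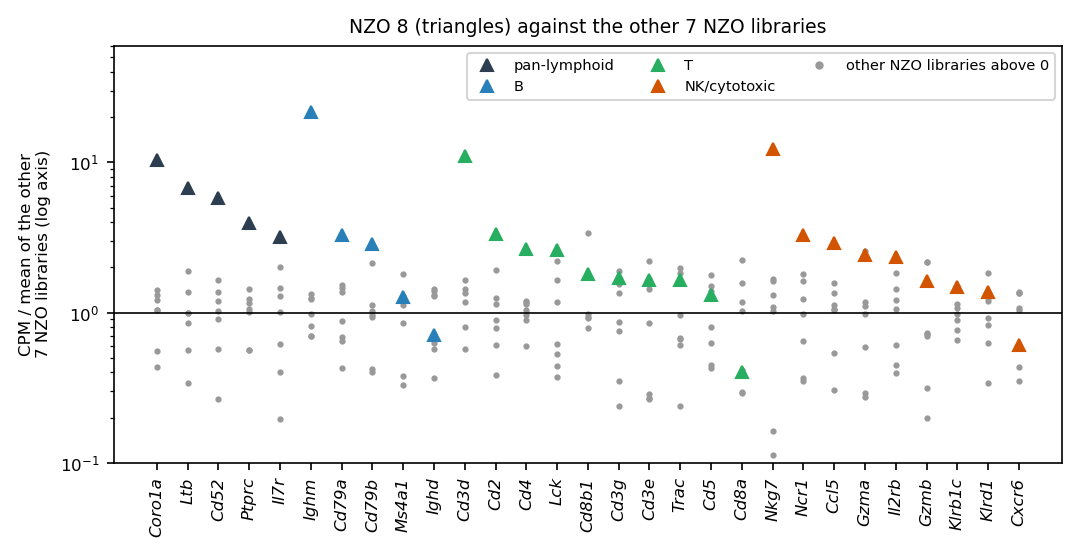
CPM in NZO 8 (triangles, coloured by group) and in the other 7 NZO libraries (grey points, those above 0) divided by the mean of the other 7, on a log axis. Ighm, Nkg7, Cd3d and Coro1a lie 10.4 to 21.7 times above that mean, and Cd8a, Cxcr6 and Ighd lie below it.

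Without NZO 8, NZO was called higher in 16 of 27 members, all of them among the 21, and lower in Cd4. The share of all genes called in either direction was 43.1%, against 46.1% with NZO 8, and was not split by direction. The median over the members was 0.89 in place of 1.39. The 5 calls that ended were Cd3d, Cd3e, Gzmb, Ighm and Lck. Il2rb (1.28), Klrd1 (2.50), Ncr1 (2.08), Nkg7 (1.84), Cd52 (1.72) and Ptprc (1.05) kept their calls. B6 had 26 called higher without NZO 8, Ighm being the one added. In B6 the share of all genes called in either direction was 36.1%, against 34.1% with NZO 8. Cast had 22 lower without NZO 8, Coro1a being the one added.

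Xist, the RNA that coats the inactive X chromosome, was at least 9.34 on the log2 CPM scale in 31 libraries and at most 3.16 in 29. Its level was used as a covariate within strains. Of 8 tested T cell genes 7 had a called slope, 6 positive (Cd2, Cd3e, Cd3g, Cd8a, Lck and Trac) and 1 negative (Cd4). Over all groups 13 of 27 slopes were called positive, beside 16.5% of genes, and 1 negative, beside 18.3%. The steepest positive slopes were 0.15 ± 0.03 log2 units per log2 unit of Xist for Gzmb (adjusted p = 3.70e-05) and 0.12 ± 0.03 for Cd3e (adjusted p = 0.00114). The smallest adjusted p was that of Cxcr6, with a slope of 0.09 ± 0.02 (adjusted p = 1.93e-05). Cd4 had a slope of -0.16 ± 0.03 (adjusted p = 8.98e-05), and the 4 WSB and 4 NOD libraries of high Cd4 were the ones of low Xist in those strains. In Cast, libraries 5, 6, 7 and 8 had low Xist, and 7 and 8 of these had high Cd4. Ighm had a slope of 0.002 ± 0.03, and without NZO 8 one of 0.05 (adjusted p = 0.036). Without NZO 8, which was of low Xist, 20 slopes were called positive, the 13 and Ccl5, Cd3d, Cd52, Cd79a, Coro1a, Ighm and Ltb. The share of all genes with a slope called in either direction was 39.1%, against 34.9% with NZO 8. High Xist went with library numbers 1 to 4 in strain-129, AJ, B6, NOD and NZO and with 1 to 3 in Cast, and with the number as a block in the model 1 slope, that of Cxcr6, was called (adjusted p = 0.0484), beside 9.70% of all genes in either direction. Slopes under the block were 0.15 for Cd3g, 0.14 for Il7r, 0.11 for Lck and -0.15 for Cd4, against 0.11, 0.09, 0.09 and -0.16 without it. Those of Gzmb (0.09) and Trac (0.03) were smaller than without it.

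**Figure D5:**
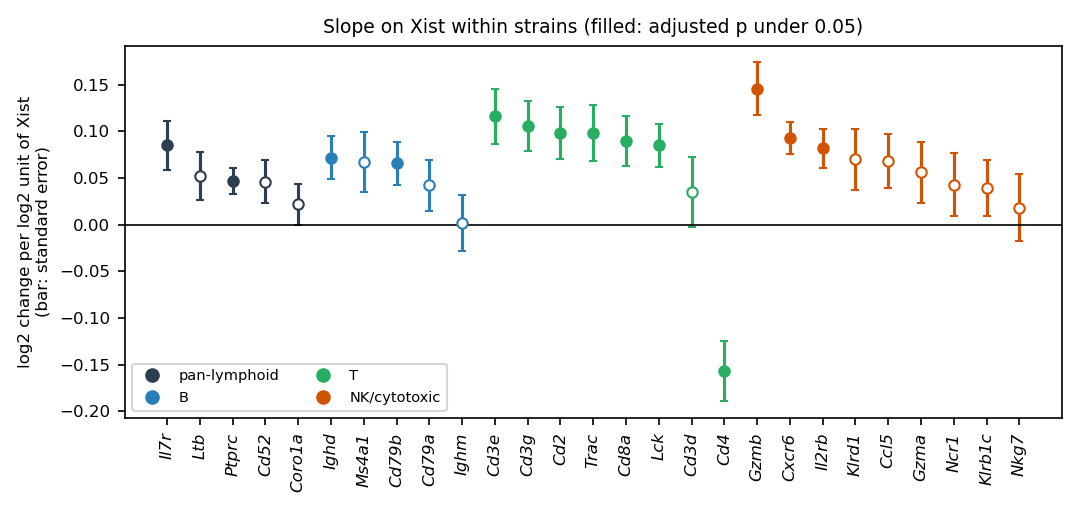
Slope of each tested member on log2 CPM of Xist within strains, with its standard error as a bar and filled points where the adjusted p is under 0.05, by group. Cd4 is at -0.16 and every other slope is above 0, with Gzmb highest.

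Within strains the groups varied together, by Pearson's r of the group means of log2 CPM after subtraction of the strain means (60 libraries, with both means taken from the same libraries). It was 0.80 between pan-lymphoid and NK genes, 0.79 between T and NK genes, and 0.77 between pan-lymphoid and T genes. B cell genes were less closely tied, with 0.63 to the pan-lymphoid, 0.51 to the NK and 0.49 to the T cell genes. Without NZO 8 these values were 0.78, 0.77, 0.76, 0.56, 0.45 and 0.44. Over the 60 libraries, the genes outside the list with the pattern most like the NK group were Epsti1 (r = 0.92), Themis2 (0.92), Arhgap30 (0.91), Il10ra (0.91) and C3ar1 (0.90). Those most like the T cell group were Gbp8 (0.89), Sp100 (0.89), Gimap3 (0.87), Epsti1 (0.86) and Il2rg (0.86). Those most like the B cell group were Hpgds (0.84), Rasal3 (0.83), Fgl2 (0.83), Ikzf3 (0.82) and Asah1 (0.82).

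Further lymphocyte genes, listed by function and not by how they moved, showed the same order. Of 137 such genes, 126 were in the table and 108 were tested. In B6, 79 were called higher and 3 lower, beside 19.4% and 14.7% of all genes. In NZO the counts were 65 and 4, beside 26.7% and 19.5%. Without NZO 8 they were 54 and 9 of 107, beside 43.1% of all genes called in either direction (46.1% with NZO 8). In Cast 9 were higher and 67 lower, beside 30.8% and 28.8%, and in WSB 7 and 62, beside 22.6% and 22.4%. All 16 other B cell genes tested were called higher in B6, with Cd22, a brake on B cell receptor signalling, at 2.77 CPM in B6 and 0.196 in Cast. Among chemokines, Cxcl10, which attracts T and NK cells, was 7.85 CPM in B6, 8.40 in NZO, 0.732 in WSB and 0.222 in Cast. Of T cell genes outside the members, Themis, needed for T cell development, was 2.83 CPM in B6 and 3.60 in NZO and was at 0 in Cast, whereas Zbtb16 (70.0 in Cast, 26.9 in B6) ran the other way.

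Markers of macrophages, dendritic cells and proliferation moved with the lymphocyte genes across the strains. Beside the counts below, the shares of all genes called higher and lower were 19.4% and 14.7% in B6 and 26.7% and 19.5% in NZO. They were 30.8% and 28.8% in Cast, 22.6% and 22.4% in WSB, and 16.7% and 11.6% in NOD. Of 18 macrophage genes, 16 were called higher and 0 lower in B6, 15 and 0 in NZO (14 and 0 without NZO 8), 1 and 13 in Cast, and 0 and 8 in WSB. Adgre1, the macrophage antigen F4/80, was 37.3 CPM in B6 and 5.50 in Cast. Their summed level was 575.4 to 1313 CPM in B6, 472.5 to 2117 in NZO, 213.7 to 528.7 in Cast and 375.0 to 721.4 in WSB, with no marker at 0 in a strain. Of 13 dendritic cell genes, 10 were called higher in B6 and 7 in NZO (6 without NZO 8), and 9 lower in Cast and in WSB. Of 10 proliferation genes, 6 were called higher and 0 lower in B6, 9 and 0 in NZO (7 and 0 without NZO 8), 1 and 6 in Cast, and 0 and 6 in WSB. Of 8 red cell and platelet genes, 8 were called higher in NZO (6 without NZO 8) and 5 in NOD, with 0 lower in either, 5 were lower and 0 higher in Cast, WSB had 1 higher and 3 lower, and B6 had 1 of each. Of 11 stellate genes, 7 were higher and 0 lower in B6, 3 and 3 in NZO (2 and 3 without NZO 8), 3 and 7 in Cast, and 4 and 0 in WSB. Of 8 endothelial genes, 2 were higher and 0 lower in B6, 2 and 4 in NZO (1 and 4 without NZO 8), 1 and 6 in Cast, and 1 and 1 in WSB. The counts of endothelial genes called higher in B6 and NZO were near the shares of all genes. Of 9 hepatocyte genes, B6 had 1 higher and 1 lower, NZO 1 and 5, Cast 2 and 4, and WSB 4 and 0. The part of these cell types in the strain order of the lymphocyte genes was not tested.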

How the data were processed

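RNA from liver was sequenced by the study. The authors deposited a table of estimated counts per gene, of which 20% were not whole numbers, and a table of variance-stabilised log2 values. DESeq2 and the build GRCm38 are named in the submitters' processing notes. For the aligner, counter, annotation and strand setting, the entry is: not given in the sources used here. Every gene of the count table was above 0 in at least 29 libraries, and 1 column per table that matched no sample was not used, which left 60 of 61 labelled samples.

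Counts were rounded (whole counts had been assumed in the design), filtered with filterByExpr (16165 of 18754 genes kept), scaled with TMM and tested with edgeR's quasi-likelihood test (edgeR 4.0.16, R 4.3.3), with Benjamini-Hochberg adjustment over all genes, a threshold of 0.05 and a prior count of 2. The strains were fitted together, each against the mean of the other 7 and in pairs. The slope on Xist had strain in the model. CPM used TMM library sizes, and the steps were tested on simulated data. Alternatives were RLE size factors, DESeq2 1.42.0, limma 3.58.1 on the deposited log2 values, no filter, removal of Rn18s-rs5 and mitochondrial genes (Rn18s-rs5 took 0.837% to 16.0% of reads), Xist as a covariate, the library number as a block, and leaving out each library. Pairs with NZO and the other gene lists were refitted without NZO 8 as an alternative added after seeing the data. Figures used Python 3.11.15 and matplotlib 3.10.9.

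The genes and lists were chosen with earlier results of these data known. Every member is named. Of other lists, up to 3 called genes of smallest p per contrast may be named, with defining markers of other cells and the 5 genes most like each of the B, T and NK groups. Genes most like Cd4 were added after its values were seen. Positions come from the deposited gene table. GRCm38 is the genome of B6, and loss of reads of other strains was not tested. The result of 1 gene of these lists is not reported here.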

Additional observations from a re-analysis of the deposited data

Results flagged for a closer look

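In 263 groups of libraries (each gene or summed group in a strain), 30 had a highest or lowest library far from the others of its strain. The limits used flag about 1 in 20 groups by chance when values are normally distributed. CPM is bounded at 0 and the groups share libraries, so 30 of 263 cannot be read against that rate. NZO 8 was the library in 11 of the 30. Its summed levels were 138.8 CPM for the B cell genes (next 11.6) and 175.2 CPM for the pan-lymphoid genes (next 47.7). Its single genes were Cd3d at 1.802 CPM (next 0.271), Cd4 at 1.644 (0.743), Cd52 at 20.14 (5.80), Cd79a at 1.675 (0.780), Coro1a at 54.53 (7.42), Ighm at 134.6 (8.25), Ltb at 4.33 (1.21), Nkg7 at 4.931 (0.676) and Ptprc at 95.18 (34.3).

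Among the B cell genes of other strains, WSB 4 had 11.76 CPM in the sum (next 4.45) and 10.86 in Ighm (3.91). Cd79a was 0.7035 CPM in strain-129 library 4 and 0.3512 in WSB 1, Cd79b was 0.5154 in AJ 3, and Ms4a1 was 1.285 in B6 1.

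Among the T cell genes, Cd3e was 0.7401 CPM in PWK 1 and, as the one low value, 0.04847 in WSB 8. Cast 2 had 0.09645 CPM in Cd3g and 0.09645 in Cd8b1, and Trac was 0.153 in Cast 7. Cd4 was 2.249 in strain-129 library 7, Cd8a was 1.011 in AJ 4, and Cd5 was 0.2818 in strain-129 library 1 and 0.2203 in NOD 3.

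Among the NK and cytotoxic genes, Ccl5 was 0.7923 CPM in AJ 4 and 0.479 in Cast 5, Cxcr6 was 0.7454 in Cast 3 and Gzmb was 0.2251 in Cast 2.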

How the results depend on the processing

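Over 115 called single-gene results, the alternatives other than leaving out a library gave 735 values, of which 699 kept direction and call, 36 kept direction only and 0 reversed. Leaving out single libraries gave 6074 values, of which 5931 kept both, 142 kept direction only and 1 reversed: Ighm in NZO was -0.605 without NZO 8, with 1.41 as the highest value over single libraries left out. The number of members called higher ranged from 23 to 26 in B6 and from 16 (without NZO 8) to 21 in NZO. The number called lower ranged from 17 (without Cast 6) to 22 in Cast and from 14 (without WSB 7) to 17 in WSB. The number called in either direction ranged from 2 to 3 in strain-129, from 2 (without AJ 4) to 7 (without NZO 8) in AJ, from 2 (without NOD 6 or NOD 8) to 5 (without NZO 8, strain-129 library 1 or Cast 2) in NOD, and from 4 to 5 in PWK. Slopes on Xist called positive numbered 20 without NZO 8. For this slope no other single library was left out.

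With the library number as a replicate block, 1 slope on Xist was called positive in place of 13 (9.70% of all genes were called), while slopes such as those of Cd3g (0.15) and Cd4 (-0.15) were about as large or larger. Under the block 24 members were called higher in B6, 20 higher in NZO, 20 lower in Cast and 16 lower in WSB. The matching shares of all genes are not given here. Of 181 pairs of libraries of the same number in different strains, 131 had a correlation over 0.1, with a median of 0.201 and a lowest of -0.43, against a median of -0.07 over 1392 pairs of different numbers, of which 566 were over 0.1. The library numbers thus carry some structure. They were not taken to pair the libraries, by the strict rule that every same-number pair be over 0.1. The main model leaves this structure out, so its p-values do not account for it. At this depth 23 of 29 members were at 0 in at least 1 library, which limits single-gene values in Cast and WSB.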

Other observations

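A few further lymphocyte genes departed from the strain order described above. Ubash3a, a phosphatase family protein that restrains T cell receptor signalling, was 25.1 CPM in PWK and at most 0.278 in the other strains, with a log2 fold change of 8.49 ± 0.24 (SE) in PWK (edgeR, adjusted p = 5.82e-36). S1pr5, a sphingosine phosphate receptor that guides NK cells out of tissue, did not follow the strain order of the NK genes. It was highest in WSB, followed by 11.7 CPM in NOD, 9.70 in PWK and 8.52 in Cast, and it was 3.28 in NZO, 2.40 in B6 and 2.16 in AJ and in strain-129. Its log2 fold change was 1.43 ± 0.16 in WSB (adjusted p = 5.43e-11) and -1.23 ± 0.21 in B6 (adjusted p = 5.09e-06). Igha, the constant region of immunoglobulin A, was highest in AJ at 3.44 CPM and was 0.280 in WSB. In NZO it was 2.62 in NZO 8 and 0.0898 on average in the other 7 libraries. In AJ its log2 fold change was 2.07 ± 0.38 (adjusted p = 2.72e-05), and without NZO 8 it was 2.37 (adjusted p = 2.01e-09), with -3.62 in NZO (adjusted p = 1.9e-08).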
